A study of Mus musculus with 4 samples.

Results

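The Hox clusters are 4 tight arrays of homeobox genes, and they were examined here for islands of histone H4 acetylated at lysine 16 (H4K16ac). An island is a stretch of the genome in which the authors' caller, SICER, found more sequenced H4K16ac reads than background. Members were taken by position alone: every island of either deposited list that overlapped 1 of 4 windows on mouse build mm9. The windows were chr6:52050001-52260000 (Hoxa, 210 kb), chr11:96000001-96270000 (Hoxb, 270 kb), chr15:102700001-102920000 (Hoxc, 220 kb) and chr2:74450001-74650000 (Hoxd, 200 kb). They held 23 islands of 88848 in both lists: 20 of the 40570 islands in embryonic stem cells (ESC) and 3 of the 48278 islands in neural progenitor cells (NPC).

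Both cell types derive from 46c, a mouse ES cell line with a GFP reporter for Sox1, a gene that marks early neural progenitors. ESC were undifferentiated. NPC had been differentiated for 5 days in medium with NB27 and Neuro2 supplements and were sorted for GFP by flow cytometry. Chromatin of both was digested with micrococcal nuclease and immunoprecipitated with the same lot of H4K16ac antibody, 1 library per cell type, each with 1 input library. No difference between ESC and NPC therefore has a replicate check or a test, and all of it rests on 1 cell line. The island lists hold 17935144 reads in ESC and 24386370 in NPC. Reads that fell outside islands are not listed. Absence of an island is therefore not absence of the mark, and the full depth of the libraries is unknown. No gene annotation of mm9 was used, so neither the labelled cell types nor the window borders were checked against genes.

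Hox genes encode transcription factors that give body segments their identity along the head-to-tail axis. Within a cluster, the order of the genes matches the order in which they are switched on and the place where they act: genes at the end with low numbers act early and toward the head, those at the end with high numbers late and toward the tail. In ES cells the clusters are a standard example of chromatin held silent by Polycomb complexes, poised for later use. H4K16ac is laid down mainly by the acetyltransferase MOF (Kat8) and is commonly found on active chromatin.

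All 38 listed Hox genes were found by symbol in the RefSeq gene table, which is on build GRCm38.p6 and was used only for names and order. In rising coordinates, Hoxa runs from Hoxa2, needed for the identity of the second pharyngeal arch, to Hoxa13, needed for digits and the genital tract, with Evx1 as the next coding gene. The other clusters run the opposite way. Hoxb starts with Hoxb13, known for its role in the prostate, and ends with Hoxb1, a hindbrain gene, followed by Skap1. Hoxc runs from Hoxc13, required for hair, to Hoxc4, followed by Smug1. Hoxd runs from Hoxd13, a digit gene that follows Evx2, to Hoxd1, followed by Mtx2. On that build the low-coordinate end is thus the head-ward end of Hoxa and the tail-ward end of Hoxb, Hoxc and Hoxd, and this orientation is used for mm9 too, without placing any gene.

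RefSeq promoter windows were available for 22 of the 38 genes, 24 windows in all, and the 250 bases before each start were searched for CG, the dinucleotide that is methylated in mammals and clusters at CpG islands. CG reads the same on both strands. The median Hox window held 12.5 CG, against 6 over 32851 windows of all genes, and 19 of the 24 exceeded that median of 6 (79.2%, against 46.3% of all windows). Hoxa and Hoxd gave 10 of the 24 windows each, Hoxb 3 and Hoxc 1, so these values describe mainly Hoxa and Hoxd. Hoxa13 held the most at 35, followed by Hoxd13 with 31 and Hoxa5 with 28. At the low end, 1 of the 2 windows of Hoxd11 held 2, while the other window of that gene held 20. Hoxa9 and Hoxd4 held 3 each. The richest window of each cluster and the poorest of all 24 are printed 5′ to 3′ to show this range, with every CG in capitals. Their positions are on GRCm38.p6 and cannot be set against the mm9 positions of the islands. It is not known which of these promoters, if any, lies under an island.
Hoxa13, chr6:52260881-52261130, - strand: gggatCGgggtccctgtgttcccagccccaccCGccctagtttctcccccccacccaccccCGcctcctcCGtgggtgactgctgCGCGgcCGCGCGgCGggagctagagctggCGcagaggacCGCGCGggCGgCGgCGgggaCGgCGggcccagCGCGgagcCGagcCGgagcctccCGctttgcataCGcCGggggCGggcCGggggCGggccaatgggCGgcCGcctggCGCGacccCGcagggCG
Hoxd13, chr2:74667975-74668224, + strand: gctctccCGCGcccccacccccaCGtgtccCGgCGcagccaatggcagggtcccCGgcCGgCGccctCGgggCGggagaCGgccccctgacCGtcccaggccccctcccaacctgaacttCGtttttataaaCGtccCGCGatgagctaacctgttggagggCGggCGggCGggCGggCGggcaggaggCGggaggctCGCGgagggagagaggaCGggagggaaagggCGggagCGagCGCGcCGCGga
Hoxb4, chr11:96318017-96318266, + strand: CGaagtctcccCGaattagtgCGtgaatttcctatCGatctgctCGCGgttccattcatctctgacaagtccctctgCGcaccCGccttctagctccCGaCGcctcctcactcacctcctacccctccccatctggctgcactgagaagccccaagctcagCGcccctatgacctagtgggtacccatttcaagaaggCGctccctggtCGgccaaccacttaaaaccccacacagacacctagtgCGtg
Hoxc4, chr15:103034145-103034394, + strand: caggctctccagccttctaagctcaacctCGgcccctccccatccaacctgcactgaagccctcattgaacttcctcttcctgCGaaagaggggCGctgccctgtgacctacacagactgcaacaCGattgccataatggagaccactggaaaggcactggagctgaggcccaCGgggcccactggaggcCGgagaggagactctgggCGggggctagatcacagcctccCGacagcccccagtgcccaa
Hoxd11, chr2:74679308-74679557, + strand: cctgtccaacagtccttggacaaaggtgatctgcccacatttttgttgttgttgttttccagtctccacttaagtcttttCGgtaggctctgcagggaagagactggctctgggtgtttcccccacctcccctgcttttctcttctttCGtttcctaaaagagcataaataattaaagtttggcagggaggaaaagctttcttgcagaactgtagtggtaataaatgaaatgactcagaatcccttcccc
The Hoxa13 stretch is 80% G plus C, while the Hoxd11 stretch is 44.8%. For Hoxb4, a gene known for its effect on blood stem cells, 14 CG stood in 58% G plus C, and for Hoxc4, the 1 Hoxc gene with a window, 8 stood in 62%.

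In ESC, each Hox window held several separate H4K16ac islands. In NPC the Hoxc and Hoxd windows held none, Hoxa held 1 and Hoxb held 2 at its outer edge. ESC islands numbered 6 in Hoxa, 4 in Hoxb, 4 in Hoxc and 6 in Hoxd. They covered 44.8 kb of the 900 kb (4.98%), and the NPC islands covered 11.6 kb (1.29%). Merged across lists, the windows held 22 regions: 19 called in ESC only, 2 in NPC only and 1 in both. Genome-wide, 34.7% of merged regions were called in ESC only.

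Of the 20 ESC islands, 19 had no overlapping NPC island (95%), against 60.2% of all ESC islands on nuclear chromosomes. Narrow ESC islands seldom had a counterpart anywhere, and 13 of the 20 were at most 2000 bp wide. None of these 13 was overlapped, where 86% of all ESC islands of that width were not. Among the 7 wider ones, 6 were not overlapped, against 46.9% of all wider ESC islands. In the other direction, 2 of the 3 NPC islands lacked an ESC counterpart, close to the 65.3% of all NPC islands. Shared bases came to 1.6 kb, which was 3.57% of the Hox bases called in ESC and 13.8% of those called in NPC. Over the autosomes these shares were 52% and 32.2%.

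Hoxa was the most covered cluster in ESC and nearly bare in NPC. Its 6 ESC islands covered 20.6 kb, or 9.81% of the window, and its NPC island 1.6 kb, or 0.762%. The strongest ESC island, chr6:52051801-52057000, lay 1.8 kb inside the head-ward border and held 630 reads over 5200 bp (121 reads per kb). The widest, chr6:52165801-52172600, stood 115.8 kb into the window with 559 reads over 6800 bp (82.2 reads per kb). The nearest NPC islands were 56 kb and 51.2 kb away from them. These were the 2 ESC members with the most reads, and neither had a counterpart in NPC.

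Between them stood a group of 3 ESC islands within 15.4 kb, which included the 1 stretch called in both cell types. Island chr6:52107801-52109800 held 234 reads (117 reads per kb), and chr6:52122601-52123200 held 77 reads over 600 bp (128 reads per kb). The middle island, chr6:52113001-52116000, held 219 ESC reads (73 reads per kb). An NPC island began at the same base, chr6:52113001-52114600, with 149 reads (93.1 reads per kb). Scaled per 1000000 island reads of each list (RPM), the shared region had 12.2 RPM in ESC and 6.11 RPM in NPC, a log2 NPC over ESC of -1 (exact 95% interval -1.31 to -0.69, counting error only). The region was 1400 bp wider in ESC, and NPC reads in those bases, if any, are not in the list. A 2-fold or larger deficit in NPC was found in 28.1% of all regions called in both lists, and this region lay at that limit.

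The last Hoxa island in ESC, chr6:52182001-52185000, held 227 reads (75.7 reads per kb). Beyond it, the 75 kb toward the Hoxa13 end of the window held no island of either list. NPC islands resumed 47.6 kb past that border at chr6:52307601-52308800 (128 reads), and ESC islands 133 kb past it at chr6:52393001-52394600 (179 reads). Summed over the Hoxa window, reads were 1946 in ESC (109 RPM) and 149 in NPC (6.11 RPM). After scaling that was 17.8-fold fewer in NPC (15 to 21.1), a log2 NPC over ESC of -4.15 (-4.40 to -3.91). The log2 moved beyond that interval to -3.71 for reads not scaled. It was -3.74 when scaled to reads in regions called in both lists. The islands behind the fold covered 20.6 kb at 94.5 reads per kb in ESC and 1.6 kb at 93.1 in NPC. The fold thus follows the covered length and the scaling, and NPC reads outside called islands are not in it.

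Hoxd, the cluster whose posterior genes such as Hoxd11, Hoxd12 and Hoxd13 shape the limb, had 6 ESC islands and no NPC island. The ESC islands covered 12.4 kb, 6.2% of the window. In rising position, chr2:74494201-74497600 held 208 reads (61.2 reads per kb), chr2:74506401-74507200 held 117 (146) and chr2:74517001-74520600 held 333 (92.5). Next, chr2:74529201-74531200 held 163 reads (81.5 reads per kb), chr2:74583601-74585400 held 189 (105) and chr2:74600801-74601600 held 109 (136). The first 4 lay within 37 kb on the low-coordinate side of the window, the end of Hoxd13, and a gap of 52.4 kb separated them from the other 2. All 6 were between 138.2 and 242.2 kb from the nearest NPC island.

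The Hoxd window lay inside an NPC stretch of 682 kb without an island, chr2:74057801-74739800, in which 9 ESC islands were called. Such stretches were common: 26.6% of the autosomal sequence between the first and last NPC island of each chromosome lay in NPC stretches at least as long. It was bounded by NPC islands at chr2:74054601-74057800 (230 reads) and chr2:74739801-74740800 (89 reads). The nearest ESC islands outside the window were closer, at chr2:74416001-74417800 (282 reads, 32.2 kb away) and chr2:74662801-74664600 (200 reads, 12.8 kb away).

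Hoxc was thinly covered in ESC and had no NPC island. Its 4 ESC islands covered 5.4 kb, or 2.45%, with 454 reads in all. Island chr15:102714801-102716600 held 143 reads (79.4 reads per kb) and chr15:102751201-102752400 held 98 (81.7). Island chr15:102767001-102768800 held 126 reads (70 reads per kb) and chr15:102786201-102786800 held 87 over 600 bp (145). All 4 lay on the low-coordinate side of the window's midpoint, the end of Hoxc13. The 133.2 kb beyond them, toward Hoxc4, Hoxc5 and Hoxc6, had no island in either list. In NPC the whole window was part of a stretch of 273.6 kb, chr15:102676201-102949800, between an island of 508 reads 23.8 kb before the window and one of 611 reads 29.8 kb after it. NPC stretches at least that long held 40.9% of autosomal sequence. The Hoxc result depends on the borders: with the window widened by 50 kb at each end, which takes in those NPC islands, the NPC minus ESC share turned from -2.45 to 2.81 percentage points.

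Hoxb was the 1 cluster in which NPC islands covered more bases than ESC islands, and this rested on its outermost 18.4 kb. The 4 ESC islands covered 6.4 kb (2.37%) and the 2 NPC islands 10 kb (3.70%). In ESC, chr11:96051201-96052200 held 122 reads (122 reads per kb), chr11:96063801-96065400 held 216 (135), chr11:96112001-96114400 held 245 (102) and chr11:96132401-96133800 held 131 (93.6). In NPC, chr11:95996201-96003800 held 517 reads (68.0 reads per kb) and crossed the border, and chr11:96012201-96018400 held 513 (82.7). The NPC islands thus preceded all of the ESC ones, 32.8 kb before the first. With the window shortened by 20 kb at each end, NPC coverage in Hoxb was 0, and the difference in covered share turned from 1.33 to -2.78 percentage points.

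Past the last ESC island, the 136.2 kb of the Hoxb window toward Hoxb1 held no island in either list. NPC islands were missing over 347.8 kb, chr11:96018401-96366200 (37% of autosomal sequence lay in NPC stretches at least as long). Hoxb reads were 714 in ESC (39.8 RPM) and 771 in NPC (31.6 RPM), counting the border island by its bases in the window. The log2 NPC over ESC was -0.33 (-0.48 to -0.18). Its sign depended on the scaling, with 0.11 for reads not scaled and 0.08 when scaled to reads in regions called in both lists, so no direction is given for Hoxb reads.

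Over all 4 windows, reads were 4233 in ESC (236 RPM) and 920 in NPC (37.7 RPM), a log2 of -2.65 (-2.75 to -2.54). This sum does not describe each window: 771 of the 920 NPC reads came from the edge of Hoxb, and without the Hoxb window, a comparison added after seeing the data, reads were 3519 and 149 and the log2 was -5.01 (-5.25 to -4.77). Covered length was 44.8 kb at 94.5 reads per kb in ESC and 11.6 kb at 79.4 in NPC. Most ESC members were small: with islands below the median reads of their list left out, 2 remained in Hoxa, 1 in Hoxd and none in Hoxb or Hoxc, and ESC coverage of the windows fell from 4.98% to 1.73%. NPC coverage was 0.216% with windows shortened by 20 kb at each end and 3.05% with windows widened by 50 kb.

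Within their windows, 16 of the 20 ESC islands lay on the low-coordinate side of the midpoint. All 4 of Hoxb and all 4 of Hoxc did so, as did 4 of 6 in both Hoxa and Hoxd. For Hoxb, Hoxc and Hoxd this is the end with the high-numbered genes, for Hoxa the end with the low-numbered ones. As no gene was placed on mm9, a position in a window is not a position in the gene array. Cut into bins of 10 kb, 22 of 90 bins held ESC island bases (24.4%), near the 20.4% of all autosomal bins. NPC island bases stood in 3 bins (3.33%), against 25.3% of all autosomal bins, and 1 bin had both.

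Neighbouring sequence differed between the clusters. The Hoxa and Hoxd windows were covered more than their flanks of 500 kb on each side in ESC, and the Hoxb and Hoxc windows less. In ESC, the covered share was 9.81% in Hoxa against 6.2% in its flanks, and 6.2% in Hoxd against 1.1%. It was 2.37% in Hoxb against 17.4% and 2.45% in Hoxc against 14.1%. In NPC every window was below its flanks: 0.762% against 11.4% for Hoxa, 3.70% against 11.3% for Hoxb, 0 against 8.96% for Hoxc and 0 against 1.24% for Hoxd. The size of these differences depended on the settings. In ESC, the Hoxd excess of 5.1 percentage points was 1.26 with flanks of 1 Mb and 1.62 with islands below the median reads left out, and the Hoxb deficit went from -15.0 to -8.87 with flanks of 250 kb. In NPC, with flanks of 250 kb the deficit went from -10.6 to -6.08 in Hoxa, from -7.58 to -3.86 in Hoxb and from -1.24 to -0.2 in Hoxd. With flanks of 1 Mb it was -19.2 in Hoxb, -13.9 in Hoxc and -3.7 in Hoxd. With the median read minimum it was -4.94 in Hoxb and 0 in Hoxd.

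**Figure D1:**
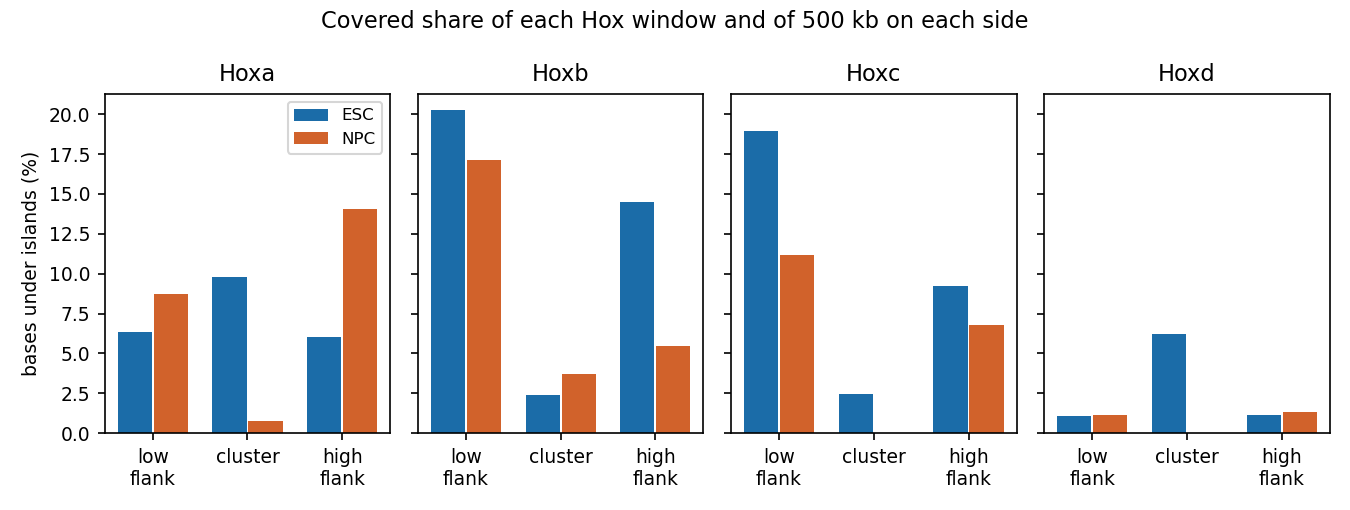
Percent of bases under H4K16ac islands (y axis, from 0) in each Hox window and in the 500 kb on its low and high side, for ESC and NPC, 1 library each. Bars of the Hoxa and Hoxd windows stand above their flanks in ESC only, and those of Hoxb and Hoxc stand below both of their flanks in each cell type.

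Reads summed over flank islands were compared in the same way. Around Hoxa, NPC reads exceeded ESC reads by RPM on the high side (225 against 138, log2 0.70). On the low side they were lower by RPM (127 against 154, log2 -0.27). Reads not scaled were higher in NPC there, 3105 against 2754, so no direction is given for the low side. Around Hoxd, flanks were sparse in both: 5 islands and 57.8 RPM in ESC, 5 islands and 36.7 RPM in NPC (log2 -0.66, -0.79 to -0.53). Around Hoxb and Hoxc, the log2 was -1.44 and -1.56. These sums did not always follow covered length. On the high side of Hoxa it was 30.2 kb in ESC and 70.2 kb in NPC, at 82.0 and 78.0 reads per kb. On the low side of Hoxa, NPC covered more (43.6 kb against 31.8 kb) at fewer reads per kb (71.2 against 86.6). The Hoxd flanks were alike, with 12.4 kb in NPC against 11 kb in ESC, at 72.2 against 94.3 reads per kb. Around Hoxb and Hoxc, both covered length and reads per kb were lower in NPC. For the Hoxa window the log2 was -4.15 (-4.40 to -3.91). Hoxc and Hoxd windows have no ratio, since no NPC reads are listed there.

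Set beside all autosomal windows of the same length, Hoxa, Hoxc and Hoxd had a low NPC minus ESC difference in coverage and Hoxb a middling one. ESC coverage of Hoxa was at or above that of 74.3% of 11484 windows of 210 kb, of Hoxd 67.1%, of Hoxc 52.2% and of Hoxb 50.2%. Median coverage over such windows was 2.1% to 2.37% in ESC and 3.1% to 3.33% in NPC. NPC covered fewer bases than ESC in Hoxa, Hoxc and Hoxd. Over all windows of the length of Hoxa, Hoxb, Hoxc and Hoxd, that held for 38.5%, 39.5%, 38.5% and 38% in turn. A difference as negative as that of Hoxa (-9.05 percentage points) was reached by 3.55% of windows, that of Hoxd (-6.2 points) by 5.93% and that of Hoxc (-2.45 points) by 13.2%. With islands below the median reads of their list left out, the difference was -5.71 points in Hoxa, -1.8 in Hoxd, 0 in Hoxc and 3.70 in Hoxb. For Hoxb (1.33 points), 59.6% of windows had the same or a lower difference. The Hoxb value was 2.43 points with the window widened by 50 kb and -2.78 with it shortened by 20 kb. The Hoxc value was 2.81 points with the window widened.

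An absence of NPC islands alone was common, since 31.2% of 12063 autosomal windows of 200 kb had none. It was less common where ESC had several islands. Of 4389 such windows with at least 4 ESC islands, the lowest number in any Hox window, 4.47% had no NPC island. Hoxc and Hoxd had none either. The 4389 windows were not matched on the width or coverage of their ESC islands. All Hoxc islands in ESC were 600 to 1800 bp wide. Of all ESC islands of at most 2000 bp, 86% lacked an NPC overlap. The 4.47% is therefore no measure of how unusual Hoxc or Hoxd was. In Hoxa, the NPC stretch that took most of the window was 193 kb, chr6:52114601-52307600, and NPC stretches at least as long held 46.8% of autosomal sequence. ESC had long stretches too. The one with the most bases in the window was 208 kb in Hoxa and 162 kb in Hoxb. It was 226 kb in Hoxc and 52.4 kb in Hoxd. The parts inside the window were 75, 136.2, 133.2 and 52.4 kb in turn. ESC stretches at least as long held 39.9%, 47.1%, 37.2% and 74.1% of autosomal sequence in turn. These shares describe the 2 libraries, and windows next to each other are not independent.

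**Figure D2:**
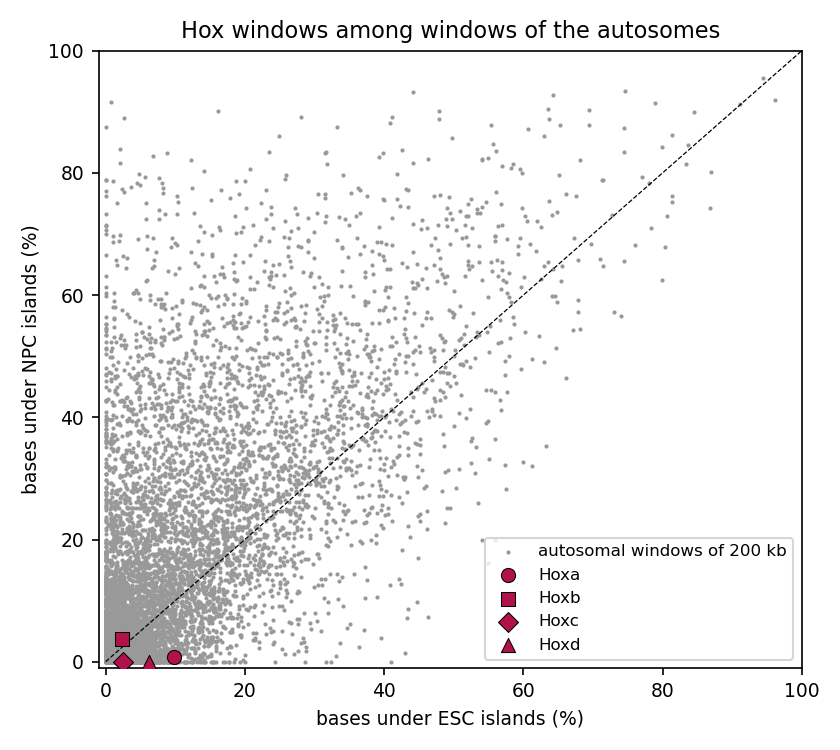
Percent of bases under ESC islands (x axis) and NPC islands (y axis) in 12063 autosomal windows of 200 kb (grey points) and in the Hox windows (coloured markers, at their own lengths of 200 to 270 kb), with a dashed line of equality. Hoxa, Hoxc and Hoxd lie below the line, at or next to 0 for NPC, and Hoxb lies above it.

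As islands, the ESC members were narrower and held fewer reads than most of their list, with a density near the middle of it. Their width ran from 600 to 6800 bp with a median of 1800 bp, against 3000 bp in all ESC islands, and 14 of 20 were below that median. By cluster, the median width of the members was 3000 bp in Hoxa, 1500 bp in Hoxb and Hoxc and 1900 bp in Hoxd. Their reads ran from 77 to 630 with a median of 176, against 277, and 17 of 20 were below it. Density ran from 61.2 to 146 reads per kb with a median of 97.8, against 93.3, and 11 of 20 were above it. The 2 narrowest, of 600 bp in Hoxa and Hoxc, held 77 and 87 reads, near the 70 reads that were the fewest of any ESC island of that width. In NPC, islands of 600 bp were called from 65 reads.

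**Figure D3:**
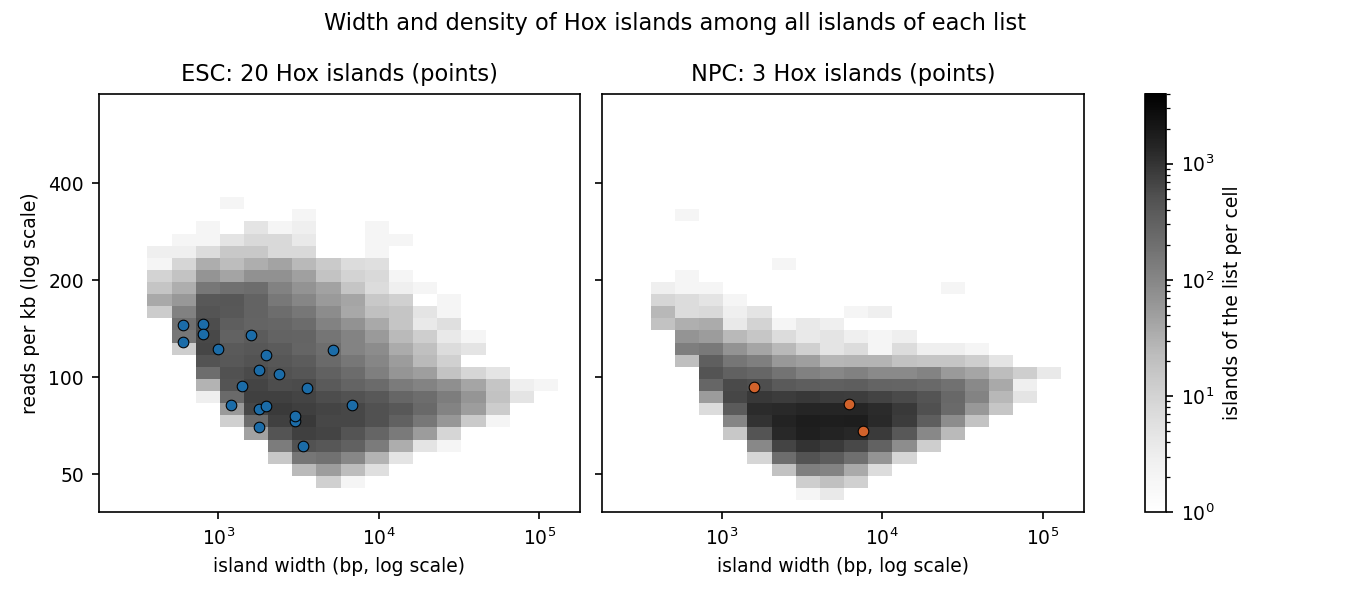
Width in bp (x axis, log scale) and reads per kb (y axis, log scale) of the Hox islands (points) over all islands of the same list (grey cells, darker for more islands). The 20 ESC points lie mostly toward the narrow side, at 61.2 to 146 reads per kb, and the 3 NPC points at 68.0 to 93.1 reads per kb.

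The distance from the 19 unmatched ESC members to the nearest NPC island had a median of 90.8 kb and a range of 3.2 to 242.2 kb. Over all unmatched ESC islands the median was 20 kb. By cluster, it ran from 3.2 to 67.4 kb in Hoxa, 32.8 to 114 kb in Hoxb, 38.6 to 110 kb in Hoxc and 138.2 to 242.2 kb in Hoxd. The 3.2 kb belongs to chr6:52107801-52109800, the Hoxa island just before the shared one. The 2 unmatched NPC members, both of Hoxb, were 32.8 and 34.4 kb from an ESC island.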

How the data were processed

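The submitters' processing notes name SICER 1.1, Bowtie 0.12.7, bedtools 2.10.1, SAMtools 0.1.7, CASAVA 1.8.2 and build mm9. List names give 200 bp windows, 600 bp gaps and an FDR of 0.01. Each deposited island carries a whole number, taken as its unscaled count of H4K16ac reads. How the input and duplicate reads were treated is not given in the sources used here, and input reads were not analysed here.

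The end of an island was read as its last base, which put 100% of islands on the 200 bp grid, and positions count from 1. Overlap began at 1 shared base. Reads of an island that crosses a border were split by bases. Windows of the autosomes ran end to end from the first to the last island. Intervals of read ratios are exact Clopper-Pearson intervals at 95% and cover counting error only, as the reads carry no molecular identifiers. No test was made. Every island of a window was named where its list had at most 6 there, and the nearest islands outside where it had none. Members, windows, gene lists and comparisons were chosen with earlier results of these data known. The minimum of 4 ESC islands, window midpoints, width classes, stretches without islands and promoter comparison were added after seeing the values. The alternatives varied the islands, gaps, borders, flanks, bins and scaling. Overlap and ratio code was tested on simulated data. Python 3.11.15, numpy 2.4.6, pandas 2.3.3, scipy 1.17.1 and matplotlib 3.10.9 were used.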

Additional observations from a re-analysis of the deposited data

How the results depend on the processing

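Of 101 recomputed values, 56 stayed within the counting interval of the value reported, 40 moved beyond it and 5 changed sign. The 56 include settings that changed nothing. Cutting the lists to equal length left every ESC value as it was, because the ESC list is the shorter. Merging gaps of up to 2000 bp also changed no value. Only 77 of the 101 were differences or log2 ratios that could change sign. The Hoxb difference in covered share, NPC minus ESC, was -2.78 percentage points with windows shortened by 20 kb, and that of Hoxc was 2.81 with windows widened by 50 kb, which takes in NPC islands outside the window. The Hoxb log2 NPC over ESC was 0.11 unscaled, 0.079 scaled to shared-region reads and 0.085 with whole islands. Of the other signed values, 2 came to 0 with the median read minimum (the Hoxc difference, and Hoxd against its flanks in NPC) and the rest kept their sign.

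Covered shares of the 4 windows moved to 1.73% in ESC with the median read minimum, and in NPC to 0.216% with shortened and 3.05% with widened windows. Window minus flanks moved in ESC from -4.71 percentage points to -2.42 with flanks of 250 kb and -5.97 with 1 Mb. In NPC it moved from -6.93 to -4.38, -11.7 and, with the read minimum, -4.89. The log2 over all windows was -2.20 unscaled, -2.23 scaled to shared-region reads, -2.29 with whole islands and, added after seeing the data, -5.01 without Hoxb. ESC reads per kb were 91.5 from 1000 bp upward, and 39.1% of bins of 20 kb and 16.1% of bins of 5 kb held ESC islands. With islands counted as shared from 0.5 of their width, 6.70% of ESC bases were shared. Movement of shares was judged against intervals that treat 200 bp windows as independent. Counts at Hox gene starts were not run, because no mm9 annotation was used. No paired analysis was possible because each cell type has 1 library. The unknown depth outside islands limits every statement on NPC stretches without islands.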
